A study of Homo sapiens with 14 samples.

Results

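MHC class I antigen presentation was followed here through 9 genes, taken as the rows of the deposited count table whose gene symbol was HLA-B, HLA-C, HLA-E, HLA-F, B2M, TAP1, TAP2, TAPBP or NLRC5. They were 9 of the 62703 genes in the table. Prostate cancer cells of the lines LNCaP, 22Rv1 and PC3 gave 14 RNA libraries after 3 days with 1.5 µM SEL120-34A, which inhibits CDK8 and CDK19, the kinases of the Mediator complex, or with the solvent dimethylsulfoxide (DMSO) as control. Each arm held 3 libraries of LNCaP, 3 of 22Rv1 and 1 of PC3. LNCaP responds to the antiandrogen enzalutamide, and 22Rv1 is resistant to it. BRB-seq, a method that barcodes each sample, pools them and counts 3′ transcript ends, was used throughout. The cells were established lines grown in culture, and every level below is that of a bulk sample, in which fewer cells and less RNA per cell cannot be told apart.

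Nearly every nucleated cell shows fragments of its own proteins to CD8 T cells on MHC class I molecules. A polymorphic heavy chain, of which HLA-B and HLA-C are classical and HLA-E and HLA-F non-classical examples, pairs with the light chain beta-2 microglobulin, encoded by B2M. Proteasomes cut proteins into peptides, the transporter formed by TAP1 and TAP2 carries them into the endoplasmic reticulum, and tapasin, encoded by TAPBP, holds the empty heavy chain at the transporter until a peptide binds. NLRC5 is the transactivator that binds with RFX proteins to the promoters of these genes, and interferon signalling and NF-kB raise their transcription. Low class I expression is a known way for tumour cells, prostate cancer included, to escape T cells.

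Of the 9 genes, 7 lie in the MHC on chromosome 6. In the GENCODE 44 annotation of GRCh38, whose gene identifiers and versions matched those of the count table for all 9, HLA-F (ENSG00000204642.14) spans chr6:29722775-29738528 on the plus strand, HLA-E (ENSG00000204592.9) chr6:30489509-30494194 on the plus strand, HLA-C (ENSG00000204525.18) chr6:31268749-31272130 on the minus strand and HLA-B (ENSG00000234745.14) chr6:31353872-31367067 on the minus strand. TAP2 (ENSG00000204267.19) spans chr6:32821833-32838739, TAP1 (ENSG00000168394.13) chr6:32845209-32853816 and TAPBP (ENSG00000231925.14) chr6:33299694-33314284, all on the minus strand. B2M (ENSG00000166710.23) lies on the plus strand at chr15:44711358-44718851 and NLRC5 (ENSG00000140853.17) on the plus strand at chr16:56989485-57083531.

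The promoters of these genes are shown because the heavy chain genes carry a shared upstream block to which the factors named above are known to bind, and because HLA-B, HLA-C and TAP1 differed together between LNCaP and 22Rv1. RefSeq promoter sequences (GRCh38.p14, 250 bases before to 50 after the gene start) were held for 7 of the 9 genes. Positions count from the RefSeq start, which is not always the edge of the GENCODE span given above. The bases printed for HLA-B, HLA-F, B2M and TAPBP therefore lie inside those spans. Capitals mark matches, on either strand, to 5 motifs: AANNGAAA (the core bound by interferon regulatory factors), GAAA followed by NN and GAAA (its tandem form, which overlaps the first), GGG followed by NN and TTCCC (NF-kB-like), TGACG (the X2 core bound by CREB and ATF factors) and ATTGG (the Y core bound by NF-Y). For the 3 heavy chain genes, bases -180 to -39 from the start are printed on the gene's own strand, at chr6:31357218-31357359 for HLA-B, chr6:31272131-31272272 for HLA-C and chr6:29723254-29723395 for HLA-F.
HLA-B: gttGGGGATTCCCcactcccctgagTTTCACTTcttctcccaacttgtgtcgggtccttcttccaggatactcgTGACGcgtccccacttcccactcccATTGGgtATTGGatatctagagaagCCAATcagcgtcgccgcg
HLA-C: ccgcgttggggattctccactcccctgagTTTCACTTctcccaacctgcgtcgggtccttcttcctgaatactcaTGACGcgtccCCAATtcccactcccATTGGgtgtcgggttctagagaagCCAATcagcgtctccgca
HLA-F: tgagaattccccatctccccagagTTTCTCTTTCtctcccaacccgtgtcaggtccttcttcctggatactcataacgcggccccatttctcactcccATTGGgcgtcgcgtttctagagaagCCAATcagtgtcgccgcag
In these windows HLA-B and HLA-C held a TGACG match at bases -106 to -102 and -105 to -101, and HLA-F held none. HLA-B alone among the 7 promoters held the NF-kB-like motif, which was present in 2.17% of the 35116 promoters of this length. ATTGG was found in 5 of the 7 promoters (34.6% of all), TGACG in 4 (24.6%) and AANNGAAA in 7 (22.8%).

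The other 4 promoters are shown by 30 bases around their first interferon-type match, at chr15:44711363-44711392 (plus strand) for B2M and, on the minus strand, chr6:32853819-32853848 for TAP1, chr6:32838778-32838807 for TAP2 and chr6:33314079-33314108 for TAPBP.
B2M: gagactctaaGAAAAGGAAACTGAAAacgg
TAP1: aggcggccgcTTTCGATTTCGCTTTCccct
TAP2: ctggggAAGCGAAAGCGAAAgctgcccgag
TAPBP: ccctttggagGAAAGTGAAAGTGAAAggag
All 4 contained the tandem form, in TAP1 on the opposite strand, as did HLA-F, which made 5 of 7 promoters against 3.57% of all. A match is a description of the letters in the window, and binding was not measured.

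Total counts ranged from 246063 to 909176 per library, and 3 counts, taken as the floor of detection, corresponded to 3.27 to 12.9 CPM (counts per library size, scaled by TMM normalization). The summed leukocyte markers were at 0 to 5.26 CPM in all libraries, with PTPRC and CD3E at 0 counts throughout. The PC3 markers CAV1, VIM, CD44 and AXL summed to 2285 and 2486 CPM in PC3 against at most 77.2 CPM elsewhere. Mitochondrially encoded genes took 13.9% to 17.3% of counts in LNCaP with DMSO and 16.5% to 23.3% with SEL120-34A, and 7.60% to 9.82% and 9.52% to 13.2% in 22Rv1.

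The 9 class I genes together were most abundant in PC3 and least abundant in 22Rv1. Their summed level was 1204 CPM in the PC3 library with DMSO, 393 ± 12.1 CPM (SD, n = 3) in LNCaP with DMSO and 153 ± 8.45 CPM (n = 3) in 22Rv1 with DMSO. The difference between the lines was not shared equally by the genes. Between LNCaP and 22Rv1, the log2 difference was 4.01 for HLA-B, 3.36 for HLA-C, 2.03 for TAP1, 0.48 for B2M and -0.32 for TAPBP, whereas between PC3 and LNCaP the ratio was higher for B2M than for HLA-C. The plot of levels by library shows each gene on its own axis.

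**Figure D1:**
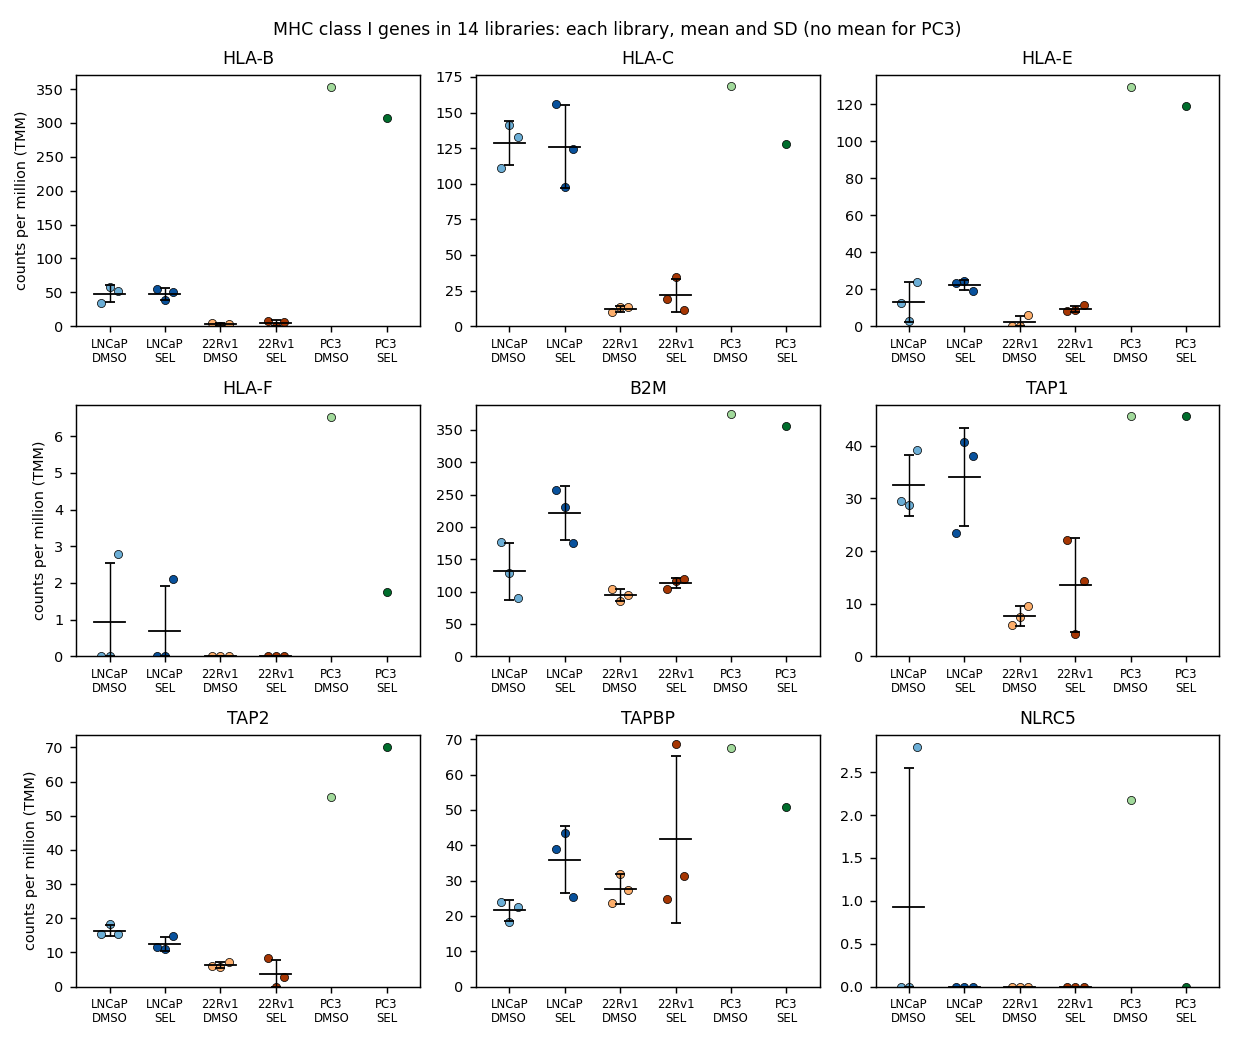
Level of each of the 9 class I genes in CPM (y axis, linear from 0, a separate scale for each gene) in the 6 groups of libraries (x axis; SEL is SEL120-34A). Points are libraries, and lines and bars are the mean and SD of 3 libraries. HLA-B lies at 354 and 307 CPM in PC3, between 33.8 and 57.6 CPM in the LNCaP libraries and at or below 8.27 CPM in 22Rv1, whereas B2M stays at or above 86.1 CPM in every library.

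HLA-B, a classical heavy chain, had 24, 22 and 37 counts in the 3 LNCaP DMSO libraries, 2, 0 and 3 counts in those of 22Rv1 and 325 counts in PC3. This corresponded to 33.8, 57.6 and 51.7 CPM in LNCaP, 3.93, 0 and 3.58 CPM in 22Rv1 and 354 CPM in PC3. The 22Rv1 libraries were all at or below the floor of 3 counts and did not overlap those of LNCaP. LNCaP was 4.01 higher than 22Rv1 on the log2 scale (SE 0.49, 95% interval 3.02 to 4.99, edgeR adjusted p = 5.79e-09). From summed counts the ratio of LNCaP to 22Rv1 was 17.3 (counting interval 7.12 to 54.6), and that of PC3 to LNCaP was 7.70 (6.04 to 9.93).

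HLA-C, the other classical heavy chain, had 79, 54 and 95 counts in LNCaP, 5, 7 and 11 counts in 22Rv1 and 155 counts in PC3, all with DMSO. Its level was 128 ± 15.5 CPM (n = 3) in LNCaP, 9.82 to 13.1 CPM in 22Rv1 and 169 CPM in PC3. Unlike HLA-B, it was close in LNCaP and PC3, with a PC3 to LNCaP ratio of 1.34 (counting interval 1.08 to 1.65). LNCaP was 3.36 higher than 22Rv1 on the log2 scale (SE 0.28, 95% interval 2.80 to 3.92, adjusted p = 2.24e-13).

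HLA-E, a non-classical heavy chain that presents leader peptides to natural killer cell receptors, had 9, 1 and 17 counts in LNCaP with DMSO, 0, 0 and 5 in 22Rv1 and 119 in PC3. The ranges of LNCaP and 22Rv1 overlapped, at 2.62 to 23.8 and 0 to 5.96 CPM. Both lines were below the PC3 level of 130 CPM, by a ratio of 8.67 (counting interval 5.67 to 13.7) for LNCaP. HLA-E did not pass the low-count filter and had no test there. By the exact permutation test used for genes below the filter, its LNCaP to 22Rv1 difference had p = 0.2 (mean log2 difference 1.93). The edgeR model without that filter gave 2.37 on the log2 scale with an adjusted p of 0.00117, from counts of 0, 0 and 5 in 22Rv1. HLA-F, another non-classical heavy chain, was at 0 to 2 counts in all LNCaP libraries, at 0 in all 22Rv1 libraries, and at 6 counts in PC3 with DMSO.

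B2M, the light chain shared by all class I heavy chains, had 126, 49 and 64 counts in LNCaP with DMSO, 53, 46 and 79 in 22Rv1 and 344 in PC3. In CPM this was 177, 128 and 89.5 in LNCaP, 104, 86.1 and 94.2 in 22Rv1 and 375 in PC3. The LNCaP and 22Rv1 libraries overlapped, and LNCaP had the wider spread (SD 44.1 against 8.99 CPM). The model gave LNCaP 0.48 higher on the log2 scale (SE 0.20, 95% interval 0.08 to 0.88, adjusted p = 0.0400), a call that 11 of 23 alternative settings did not make. Without LNCaP DMSO replicate 1 the difference was 0.15 (adjusted p = 0.609), and it was lost as well without any of the 22Rv1 DMSO libraries (0.0529 to 0.110). The ratio of PC3 to LNCaP was 2.83 (counting interval 2.39 to 3.35).

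TAP1, the first subunit of the peptide transporter, had 21, 11 and 28 counts in LNCaP, 3, 4 and 8 in 22Rv1 and 42 in PC3, all with DMSO. LNCaP lay at 28.8 to 39.1 CPM and 22Rv1 at 5.89 to 9.54 CPM without overlap, a log2 difference of 2.03 (SE 0.40, 95% interval 1.22 to 2.83, adjusted p = 5.42e-05). PC3, at 45.7 CPM, was not separated from LNCaP by counting error (ratio 1.38, 0.906 to 2.08). PSMB9 overlaps TAP1 on the opposite strand with 48 counts over all libraries, and whether counting used the strand was not stated. TAP2, the other subunit, had 11, 7 and 11 counts in LNCaP and 3, 3 and 6 in 22Rv1, which in CPM were 15.4 to 18.3 against 5.62 to 7.16 without overlap (exact two-sided permutation test, p = 0.1, the smallest that 3 against 3 libraries allow). In PC3 it had 51 counts or 55.5 CPM.

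TAPBP did not follow the order of the heavy chains. It had 17, 7 and 16 counts in LNCaP with DMSO and 12, 17 and 23 in 22Rv1, or 18.3 to 23.9 and 23.6 to 31.8 CPM. The 2 ranges overlapped, and the log2 difference was -0.32 (95% interval -1.01 to 0.37, adjusted p = 0.459). PC3 had 62 counts, 3.05 times the LNCaP level (counting interval 2.02 to 4.66) and 2.44 times that of 22Rv1 (1.66 to 3.60). A transcript antisense to TAPBP had 26 counts over all libraries. NLRC5, the transactivator, had 2 counts in a single LNCaP library, 2 in PC3, 0 in the other DMSO libraries and 0 in every treated library, so that no difference was detectable at this depth.

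Of the 9 genes, 5 passed the low-count filter and 4 of those 5 were called higher in LNCaP than in 22Rv1, where 24% of the 7086 tested genes were called higher and 49% were called in either direction. HLA-B, HLA-C and TAP1 reached the filter of 22.5 CPM in 3 libraries only through LNCaP, so that for these 3 the passing of the filter and the difference are linked and their count is given without further reading. Libraries of the lines did not overlap for HLA-B, HLA-C, TAP1 and TAP2, against 56.4% of tested genes. HLA-B and HLA-C share 13 of 451 words of 50 bases in the last 500 bases of their transcripts (2.88%), and reads from those stretches fit either gene.

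To investigate the response to SEL120-34A, the treated and DMSO libraries were compared within each line. In LNCaP, B2M was higher with the inhibitor and the classical heavy chains did not differ detectably. Of the 5 class I genes tested, 1 was called higher and 0 lower, where 2.77% of the 7086 genes were called in either direction and 1.99% were called higher. The median log2 fold change of the 5 genes was 0.12, against 0.000759 over all genes. Since only genes with enough counts were tested, the 5 do not stand for all 9.

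B2M had 66, 85 and 83 counts in the LNCaP libraries with SEL120-34A, against 126, 49 and 64 with DMSO. Scaled for depth, this was 257, 230 and 175 CPM with the inhibitor and 177, 128 and 89.5 CPM with DMSO. The highest DMSO library lay just above the lowest treated library, so that the arms overlapped by that pair. The log2 fold change was 0.75 (SE 0.19, 95% interval 0.36 to 1.13, edgeR adjusted p = 0.0204). The call was lost without DMSO replicate 2 (adjusted p = 0.0608) or 3 (0.281, fold change 0.50), or without treated replicate 1 (0.167) or 2 (0.131), and it was not made by DESeq2 (0.0750) or by limma on the deposited log2 CPM (0.177). B2M accounted for 89.3 of the 107 CPM by which the mean of the summed class I genes was higher with the inhibitor in LNCaP.

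Over the 6 LNCaP libraries the B2M level had the same order as the share of mitochondrial counts. B2M rose from 89.5 to 257 CPM while that share rose from 13.9% to 23.3%, and 0.409% of the tested genes rose in that same order. With the mitochondrial share as a covariate, a setting chosen after seeing the data, the B2M fold change was 0.35 with an adjusted p of 0.651, and 60 genes in place of 196 were called. The share was 13.9% to 17.3% with DMSO and 16.5% to 23.3% with the inhibitor. It thus moved with treatment, and the fit cannot separate the share from the treatment. With the mitochondrial genes removed, also chosen after seeing the data, the B2M fold change was 0.74 (adjusted p = 0.0209). Other measures also separated the LNCaP arms, since the luminal markers summed to 4043 to 4576 CPM with DMSO and 3231 to 3501 CPM with the inhibitor. The 3 fibroblast and endothelial markers summed to 12.7 to 18.3 and 23.4 to 38.0 CPM, where COL3A1 went from 0 to 2 counts with DMSO to 4 to 12 with the inhibitor, COL1A1 from 7 to 13 counts to 2 to 5, and PECAM1 from 0 to at most 1. The part of these measures in the B2M difference was not tested.

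**Figure D2:**
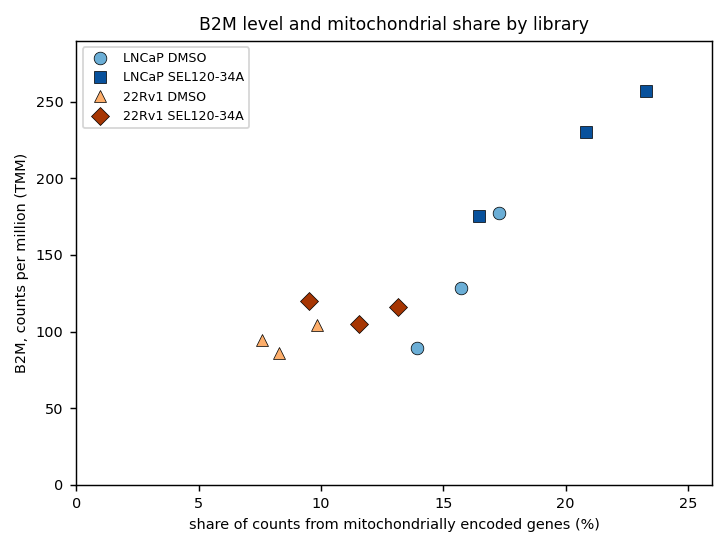
B2M level in CPM (y axis) against the share of counts from mitochondrially encoded genes in percent (x axis), with a point for each of the 12 LNCaP and 22Rv1 libraries, coloured and shaped by group. The 6 LNCaP points rise in a single order from 89.5 CPM at 13.9% to 257 CPM at 23.3%, and the 22Rv1 points stay between 86.1 and 120 CPM.

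HLA-B and HLA-C did not differ detectably between the LNCaP arms. HLA-B had 14, 14 and 24 counts with SEL120-34A, or 54.6, 37.9 and 50.7 CPM, within the range of the DMSO libraries (log2 fold change 0.06, 95% interval -0.57 to 0.68, adjusted p = 0.968). HLA-C had 40, 36 and 59 counts, or 156, 97.6 and 125 CPM, on both sides of the DMSO range (-0.01, 95% interval -0.42 to 0.40, adjusted p = 0.995). The interval for HLA-C leaves out changes beyond 0.42 on the log2 scale in either direction. HLA-E had 6, 9 and 9 counts, or 19.0 to 24.4 CPM against 2.62 to 23.8 CPM with DMSO, a mean difference of 1.00 on the log2 scale with overlapping arms (exact permutation test, p = 0.3).

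TAPBP had 10, 16 and 12 counts in treated LNCaP libraries, or 25.3 to 43.4 CPM, all above the 18.3 to 23.9 CPM of the DMSO libraries. The fold change of 0.68 did not pass the test across genes (95% interval -0.05 to 1.42, adjusted p = 0.413). TAP2 went the other way, with 3, 4 and 7 counts or 10.8 to 14.8 CPM against 15.4 to 18.3 CPM with DMSO. For both, the exact permutation test gave p = 0.1, the smallest it allows, and 19.4% of tested genes also had arms that did not overlap. TAP1 had 6, 15 and 18 counts, or 23.4 to 40.7 CPM, around its DMSO range (0.12, adjusted p = 0.929).

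In 22Rv1 the class I genes were on average higher with the inhibitor, but none passed the test. The summed level was 208 ± 20.5 CPM with SEL120-34A and 153 ± 8.45 CPM with DMSO (n = 3 each), and B2M, TAPBP and HLA-C contributed 18.7, 14 and 9.67 CPM to this difference of 55.3 CPM. Of the 5 genes tested, 0 were called at an adjusted p under 0.05 and 0 had an unadjusted p under 0.05 by edgeR, and DESeq2 and limma also called 0, where 5.7% of all genes were called. All 5 fold changes were above 0, with a median of 0.73 against 0.00251 over all genes. They included HLA-B at 0 to 3 counts in both arms, and HLA-B, HLA-C and TAP1 passed the filter only through LNCaP. Of the genes not tested, TAP2 was lower by 2.51 CPM, HLA-E higher by 7.43 CPM, and HLA-F and NLRC5 were at 0 counts.

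HLA-C had 7, 8 and 4 counts in treated 22Rv1 libraries, or 19.3, 34.3 and 11.4 CPM, against 9.82 to 13.1 CPM with DMSO. The highest value came from the shallowest library, and the arms overlapped (log2 fold change 0.73, 95% interval -0.18 to 1.63, adjusted p = 0.401). HLA-B stayed at 0 to 3 counts in both arms, at or below the floor. HLA-E had 3, 2 and 4 counts with the inhibitor, or 8.27 to 11.4 CPM, against 0, 0 and 5 counts or 0 to 5.96 CPM with DMSO. These arms did not overlap in CPM (exact permutation test, p = 0.1), beside 23% of tested genes, although the largest count was in a DMSO library. No fold is given at these counts.

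B2M in 22Rv1 had 38, 27 and 42 counts with SEL120-34A, or 105, 116 and 120 CPM, just above the 86.1 to 104 CPM of the DMSO libraries. The arms did not overlap, as for 23% of tested genes, and the log2 fold change was 0.27 (95% interval -0.19 to 0.72, adjusted p = 0.569). TAP1 varied widely, with 8, 1 and 5 counts or 22.0, 4.29 and 14.3 CPM against 5.89 to 9.54 CPM (0.88, 95% interval -0.22 to 1.98, adjusted p = 0.404). TAP2 had 3, 0 and 1 counts, at or below the floor. TAPBP had 9, 16 and 11 counts or 24.8, 68.7 and 31.4 CPM, of which only the shallowest library was clearly above the DMSO range (0.49, 95% interval -0.22 to 1.20, adjusted p = 0.492).

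**Figure D3:**
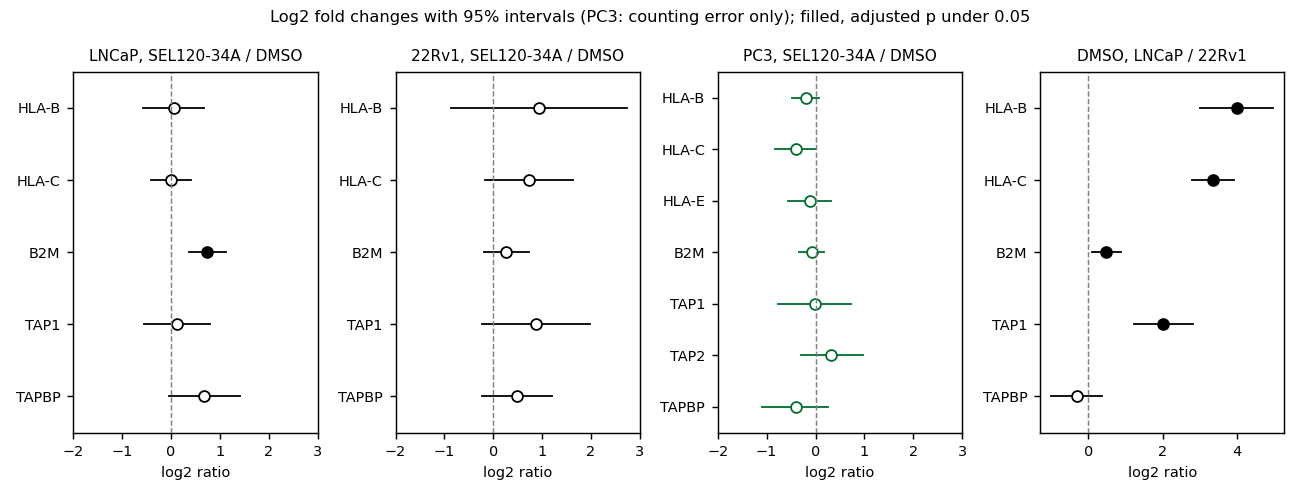
Log2 ratios (x axis) of class I genes (y axis) for SEL120-34A against DMSO in LNCaP, 22Rv1 and PC3, and for LNCaP against 22Rv1 with DMSO (wider axis). Lines are 95% intervals from the edgeR model, and for PC3 from counting error only with no replicate check. Filled points passed an adjusted p of 0.05, which were B2M in LNCaP (0.75) and HLA-B, HLA-C, B2M and TAP1 between the lines.

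The response was not shown to differ between the lines. For the difference of the LNCaP and 22Rv1 effects, 0 of the 5 class I genes were called and 0 had an unadjusted p under 0.05 by edgeR, where 0.734% of all genes were called, and DESeq2 and limma also called 0. The smallest unadjusted p was that of B2M, 0.113, with a difference of 0.48 (95% interval -0.12 to 1.07, adjusted p = 0.566). Averaged over both lines, B2M was called higher with a log2 fold change of 0.51 (adjusted p = 0.0295), 1 of 5 class I genes where 6.01% of all genes were called. The call was made by 12 of 24 alternative settings and was lost without any 1 of 7 libraries, with fold changes of 0.38 to 0.50. TAPBP averaged 0.59 with an adjusted p of 0.176.

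PC3, in which class I was most abundant, was represented by 1 library per arm and its values carry counting error only. HLA-B had 325 counts with DMSO and 175 with the inhibitor, or 354 and 307 CPM (log2 ratio -0.20, counting interval -0.48 to 0.06). HLA-C had 155 and 73 counts, or 169 and 128 CPM (-0.39, -0.82 to 0.01). B2M had 344 and 203 counts, or 375 and 356 CPM (-0.07, -0.33 to 0.18).

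HLA-E had 119 and 68 counts (-0.12, -0.57 to 0.32), TAP1 42 and 26 (-0.00, -0.77 to 0.74), TAP2 51 and 40 (0.32, -0.30 to 0.96) and TAPBP 62 and 29 (-0.39, -1.10 to 0.25). All 7 intervals included 0. Of the 7 genes with at least 10 counts, 6 had a negative log2 ratio, with a median of -0.12, where 43.9% of 7089 genes were negative and the median was 0.0513. HLA-F had 6 counts with DMSO and 1 with the inhibitor and NLRC5 had 2 and 0, a difference that was not detectable at this depth. The upper counting limit of 0.18 for B2M in PC3 lay below the LNCaP model interval of 0.36 to 1.13. The PC3 limit leaves out the spread between libraries, so the 2 intervals are not alike, and the difference between these lines was not tested.

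The genes around the class I molecules were then examined in lists by role. Of 14 genes for peptide generation and trimming, 8 were tested and 0 were called with SEL120-34A in either line. Over all genes, 2.77% were called in LNCaP and 5.7% in 22Rv1, so 0 calls in a list this short is given without further reading. The constitutive proteasome subunit PSMB5 was measured in depth (log2 fold change -0.05 in LNCaP and 0.34 in 22Rv1, adjusted p = 0.929 and 0.174). So was PSME1, a subunit of a proteasome activator and not of the constitutive set (0.23 and 0.39, adjusted p = 0.570 and 0.136). The immunoproteasome subunits, which replace constitutive subunits such as PSMB5 under interferon, were picked here after their values were seen. PSMB8 had 0 to 2 counts in every LNCaP and 22Rv1 library and 56 and 33 counts in PC3, and PSMB9 had 0 to 3 counts against 26 and 9, whereas PSMB10 was at 0 counts in both PC3 libraries and at 0 to 3 elsewhere.

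Of 8 peptide loading chaperones, 6 were tested, and 2 were called lower with the inhibitor in 22Rv1, where 1.55% of all genes were called lower, and 0 in LNCaP, where 0.776% were. HSPA5, the chaperone BiP of the endoplasmic reticulum, had 376 to 480 counts in 22Rv1 with DMSO and 57 to 143 with SEL120-34A, or 687 ± 99.4 and 347 ± 89.2 CPM (n = 3 each). The arms did not overlap, as for 23% of tested genes, and HSPA5 fell by 0.94 on the log2 scale (SE 0.15, 95% interval -1.24 to -0.64, adjusted p = 2.72e-05). CANX, the lectin chaperone calnexin that binds new heavy chains, was at 393 ± 32.8 and 256 ± 51.1 CPM and fell by 0.59 (SE 0.15, adjusted p = 0.0105), a call that was lost without treated replicate 1 (0.0710) or 2 (0.124) and with the mitochondrial share as a covariate (-0.36, adjusted p = 0.403). With that covariate 87 in place of 404 genes were called in 22Rv1. In LNCaP, HSPA5 and CANX gave -0.22 and -0.14 (adjusted p = 0.599 and 0.788), and neither difference between the lines passed the test (adjusted p = 0.145 for HSPA5 and 0.461 for CANX). CALR and PDIA3, which take part in peptide loading, were not called in either line. The list's median was -0.43 in 22Rv1 and -0.05 in LNCaP.

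Both chaperones also differed between the lines with DMSO, where they were lower in LNCaP while HLA-B and HLA-C were higher. The log2 difference of LNCaP from 22Rv1 was -1.36 for CANX and -1.33 for HSPA5 (adjusted p = 2.48e-10 and 2.96e-10). For CALR it was -0.95 (adjusted p = 1.47e-08). Of the 6 chaperones tested, 4 were called lower in LNCaP and 0 higher, where 25% of all genes were called lower, with PRKCSH, a glucosidase subunit chosen after its value was seen, as the other (-0.62, adjusted p = 0.00475, and 0.0633 without LNCaP DMSO replicate 3).

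Of 17 factors of class I promoters, 9 were tested and 1 was called with SEL120-34A in LNCaP, where 2.77% of all genes were called, and 0 in 22Rv1, where 5.7% were. NFKB1, which encodes the p105 precursor and p50 subunit of NF-kB, had 23, 4 and 24 counts in LNCaP with DMSO and 24, 31 and 22 with SEL120-34A. This was 10.5 to 33.6 CPM and 46.5 to 93.6 CPM without overlap, as for 19.4% of tested genes. The log2 fold change was 1.39 (SE 0.33, 95% interval 0.72 to 2.05, adjusted p = 0.0113), which 18 of 24 alternative settings also called. The call was lost without DMSO replicate 2 (adjusted p = 0.0586) or without treated replicate 1 (0.101) or 2 (0.113). In 22Rv1 the fold change was -0.70 (adjusted p = 0.480), and the difference between the lines, 2.09, had an adjusted p of 0.0868. RFX5, which binds the X box beside NLRC5 and was picked after its values were seen, was at 53.6 ± 9.90 CPM in LNCaP and 16.0 ± 1.43 CPM in 22Rv1 with DMSO (n = 3 each), a log2 difference of 1.75 (SE 0.31, adjusted p = 8.88e-06) that was not called with the mitochondrial covariate (0.82, adjusted p = 0.421). The mitochondrial share did not overlap between the lines with DMSO, so that covariate cannot be separated from the line. With it, 1292 in place of 3473 genes were called between the lines. Of the 9 factors, 2 were called higher in LNCaP (RFX5 and CREB1) and 2 lower (EZH2 and ATF1), all named after their values were seen, beside 49% of all genes called in either direction. With the inhibitor RFX5 gave 0.11 in LNCaP (adjusted p = 0.929). NFYC, NFYB, RELA and RFXANK, the most abundant factors of the list, were not called with the inhibitor in either line.

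**Figure D4:**
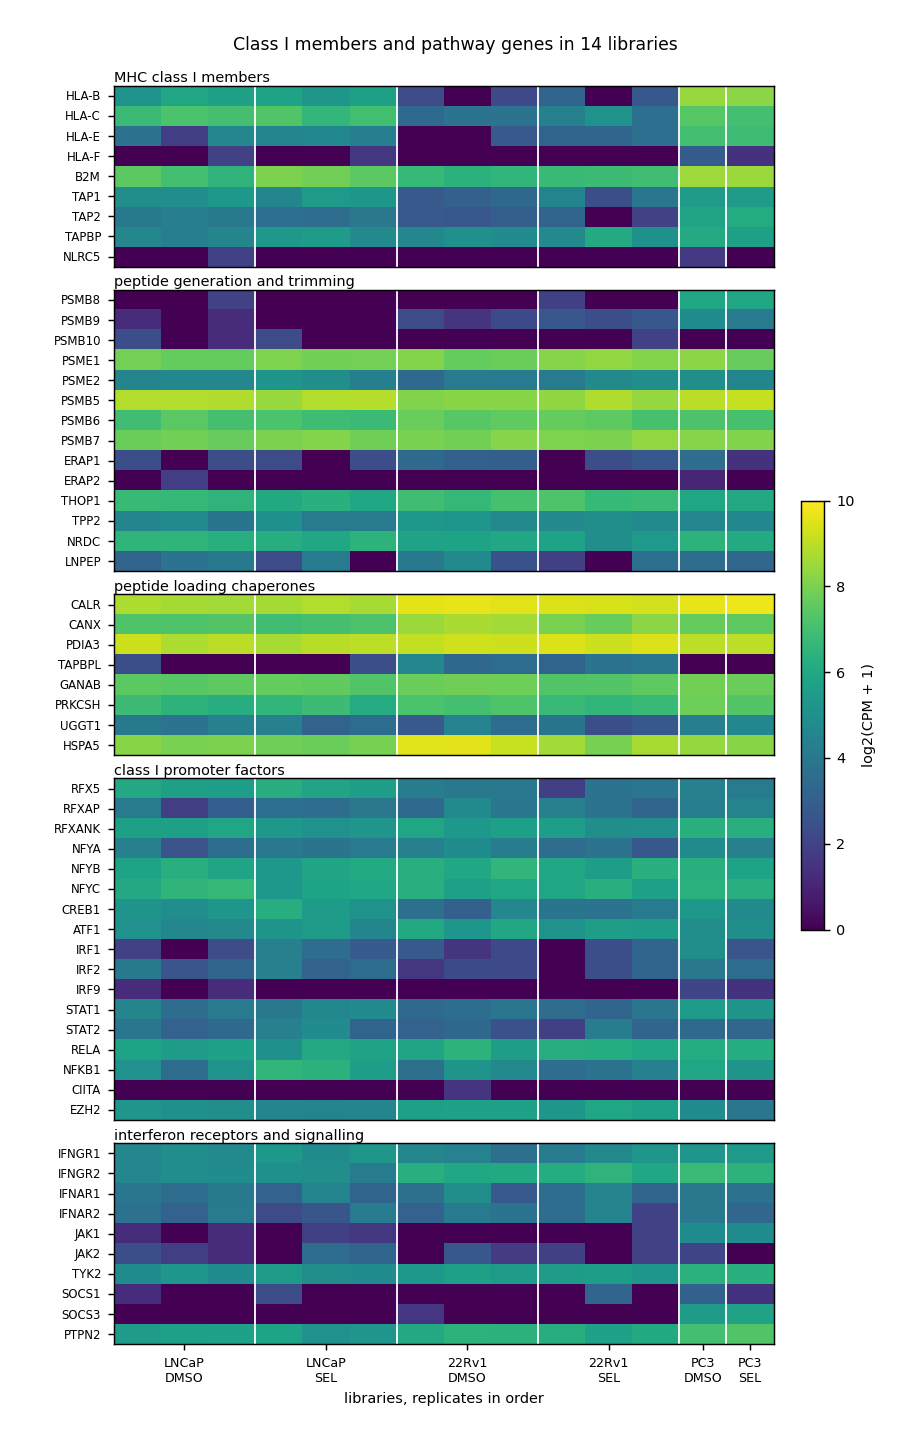
Heat map of log2(CPM + 1) (colour scale from 0 to 10) for the class I genes and 4 lists of pathway genes (rows) in the 14 libraries (columns, replicates in order within each group; SEL is SEL120-34A). HLA-B is at 3 counts or fewer in the 22Rv1 columns, PSMB8 is at 0 to 2 counts outside the PC3 columns, and NFKB1 is brighter in the treated than in the DMSO columns of LNCaP.

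Of 10 interferon receptor and signalling genes, 4 were tested and 0 were called with the inhibitor in either line, beside 2.77% of all genes in LNCaP and 5.7% in 22Rv1. JAK1, the kinase shared by the interferon receptors and chosen after its values were seen, had 0 or 1 count in the LNCaP and 22Rv1 libraries and 26 and 16 counts in PC3. IFNGR2, a chain of the interferon gamma receptor, was lower in LNCaP than in 22Rv1 with DMSO (log2 difference -1.36, adjusted p = 2.40e-05), as was PTPN2, a phosphatase that acts on JAK kinases (-0.71, adjusted p = 0.00711). Of 12 interferon-induced genes outside the pathway, 1 was tested. ISG15, a ubiquitin-like modifier, gave 0.14 in LNCaP and 0.38 in 22Rv1 with the inhibitor (adjusted p = 0.173 in 22Rv1) and was lower in LNCaP than in 22Rv1 with DMSO, at -1.13 (adjusted p = 4.02e-07). In PC3 the log2 ratio of ISG15 was -0.58 (counting interval -0.89 to -0.29). IRF1, an interferon regulatory factor picked after its values were seen, had 27 counts in PC3 with DMSO and 3, the floor, with the inhibitor. Its log2 ratio, computed as for ISG15, was -2.01 (counting interval -4.85 to -0.78). In LNCaP, IRF1 had 0 to 3 counts with DMSO and 3 to 5 with the inhibitor, and in 22Rv1 it had 1 to 3 and 0 to 3.

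Of 11 class I-like molecules, 1 was tested and 0 were called with the inhibitor, beside 2.77% of all genes in LNCaP and 5.7% in 22Rv1. The tested gene was PROCR, the protein C receptor, which had 0, 0 and 3 counts in LNCaP and 25, 26 and 42 in 22Rv1 with DMSO. LNCaP was lower (adjusted p = 1.28e-09), with a ratio of LNCaP to 22Rv1 of 0.0336 from summed counts (counting interval 0.00681 to 0.101). Of 7 genes of class I turnover, 4 were tested and 0 were called with the inhibitor, beside those same shares of all genes. Between the lines with DMSO, 1 of the 4 turnover genes was called higher in LNCaP and 2 lower, beside 24% and 25% of all tested genes. HM13, the signal peptide peptidase that releases the leader peptides bound by HLA-E, was 0.73 higher on the log2 scale (adjusted p = 5.79e-05). SPPL3, an intramembrane protease, was lower (-0.54, adjusted p = 0.0113, and 0.138 after thinning to equal totals). So was MARCHF9, named after its value was seen (-1.42, adjusted p = 5.29e-05). With the mitochondrial covariate the differences of HM13, SPPL3, MARCHF9, PTPN2 and ISG15 between the lines were not called (adjusted p = 0.306, 0.364, 0.109, 0.608 and 0.0996). Over all genes, 1292 in place of 3473 were called between the lines with it. The mitochondrial share did not overlap between the lines with DMSO (13.9% to 17.3% and 7.60% to 9.82%). This covariate therefore cannot be separated from the line, and a lost call is given without further reading. Of 5 class II genes, none passed the filter.

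Across the 14 libraries, the likeness of expression patterns was described by Pearson's r of log2 CPM. The libraries share line and depth, so that r mostly reflects the lines and is given with no test. The genes most like HLA-C among 9637 others were CD99 (r = 0.98), RHOD (0.978), SFT2D1 (0.978), IFT57 (0.975) and IFITM3 (0.973). Those most like B2M were PRDX6 (0.928), MALL (0.927), FLNA (0.92), LCP1 (0.918) and QSOX1 (0.917). Among the class I genes, HLA-B was closest to TAP2 (0.931, rank 41) and TAP1 (0.898, rank 97), and HLA-C to HLA-B (0.855, rank 230). TAPBP had r of 0.589 to HLA-E, 0.585 to B2M, 0.219 to HLA-B, 0.175 to HLA-C, 0.133 to TAP2 and 0.00297 to TAP1.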

How the data were processed

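The deposited counts per gene were made by the authors with STARsolo on GRCh38.p13 and GENCODE 43, as their methods state. Whether molecular identifiers were collapsed and whether counting used the strand are not given in the sources used here, so intervals and floors cover only counting error. A table of log2 CPM values, deposited for 9638 genes, was also used. TMM factors with a prior count of 2 returned these values from the counts to within 5e-14, and it served for 1 alternative.

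Groups and replicate numbers came from the labels, which do not say that replicates were separate cultures, so p-values measure the spread between these libraries. The growth conditions in the labels name only 22Rv1. Replicate libraries were compared by chi-square on counts, and every pair differed by more than sampling noise (at least 1.43 per degree of freedom, where noise alone gives about 1).

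Counts of the 12 LNCaP and 22Rv1 libraries were fitted in 1 model of 4 group means with edgeR 4.0.16 (TMM, filterByExpr, quasi-likelihood F-test, 8 residual degrees of freedom) under R 4.3.3, with Benjamini-Hochberg adjustment over 7086 genes and a threshold of 0.05. Log2 fold changes and their intervals come from that model. Genes below the filter were compared by an exact two-sided permutation test on log2 CPM, and PC3 by ratios with exact binomial counting intervals. The procedure was tested on simulated counts. DESeq2 1.42.0 and limma 3.58.1 were alternatives.

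The named genes are the 9 class I genes, the genes of 8 pathway lists called with SEL120-34A or in the difference of its effects, at most 4 further genes per list with the largest mean CPM, and the 5 genes most correlated with B2M and HLA-C. Others are marked as picked after their values were seen. The genes and lists were chosen with earlier results of these data known. HLA heavy chains are polymorphic and reads were aligned to a single reference, and alleles were not typed here. Identifiers of 62686 of the 62703 genes were found in GENCODE 44.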

Additional observations from a re-analysis of the deposited data

How the results depend on the processing

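The higher HLA-B, HLA-C and TAP1 levels in LNCaP than in 22Rv1 were called under every alternative that kept these genes. As these genes reached the low-count filter only through LNCaP, being kept by it and the difference are linked. The count of class I genes called there was 4, and 0 where at least 10 counts were required in every library, which left 1 of them tested. It was 3 to 6 under the other alternatives, 6 with PC3 added and 3 with library totals, after thinning, with DESeq2, at 0.01 and with the mitochondrial covariate, and 3 to 5 when each library was left out. The count in LNCaP with SEL120-34A, 1 (B2M), became 0 with library totals in place of TMM, with each line fitted alone, after thinning to 246063 counts, with DESeq2, with limma, at a threshold of 0.01 and with the mitochondrial share as a covariate, and ranged from 0 to 1 when each library was left out. The count for the average effect, 1, became 0 with library totals, without the low-count filter, after thinning, with limma, at 0.01 and with the covariate, and ranged from 0 to 1 without single libraries. The cause was not tested.

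Small fold changes turned in sign. In LNCaP with SEL120-34A, HLA-B was -0.032 with library totals, -0.016 without a filter and -0.027 after thinning (-0.16 to 0.19 without single libraries), HLA-C was 0.00032 with DESeq2 size factors, 0.077 after thinning and 0.0037 with DESeq2 (-0.16 to 0.13), and TAP1 was -0.25 after thinning (-0.0031 to 0.30). TAPBP in the difference of the effects ranged from -0.10 to 0.64 without single libraries. With the mitochondrial covariate B2M was -0.16 in 22Rv1 and -0.49 between the lines. The mitochondrial share itself differed by line and was higher in most treated libraries, so that setting cannot separate it from line or treatment. Without LNCaP DMSO replicate 1 the B2M difference between the lines was 0.15. Library totals moved the median of all genes by -0.14 in 22Rv1, -0.12 for the average and -0.21 between the lines. Same-numbered libraries did not deviate together in every pair (r from -0.0226 to 0.378), and not every library correlated best with its own number, so that the numbers were not taken to pair the libraries. With a replicate block over both lines the B2M fold change in LNCaP was 0.78, and with a block within lines 0.80 (adjusted p = 0.00227 and 0.000905), and the counts of class I genes called were 1 in LNCaP, 0 in 22Rv1, 0 for the difference and 1 for the average, as without the block. Depth limited the rest, since HLA-F and NLRC5, and HLA-B and TAP2 in 22Rv1, were near 3 counts per library.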

Other observations

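The 7 class I genes on chromosome 6 lie between HLA-F and TAPBP, and of those tested HLA-B, HLA-C and TAP1 were called higher in LNCaP than in 22Rv1 and TAPBP was not. HLA-B, HLA-C and TAP1 passed the low-count filter only through LNCaP, so their calls are not set against those of their neighbours. No test compared them with their neighbours. Of 330 other annotated genes there, 48 passed the low-count filter, of which 6 were called higher in LNCaP than in 22Rv1 with DMSO and 17 lower. This was 12.5% higher and 35.4% lower, beside 24% and 25% of all tested genes, and the median log2 difference was -0.58 beside -0.0298. Examples picked after their values were seen were DDAH2, a regulator of nitric oxide metabolism (log2 difference -3.44, SE 0.33, adjusted p = 1.89e-11), and the heat shock genes HSPA1A (-2.78, SE 0.53, adjusted p = 3.12e-05) and HSPA1B (-1.95, SE 0.17, adjusted p = 5.23e-13), which are near-identical copies whose reads can be split between them. With SEL120-34A, 1 of the 48 was called lower in LNCaP and 2 higher in 22Rv1.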
